A study of Mus musculus with 2 samples.

Results

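The genes examined were 8 factors that macrophages can make for tissue growth: the EGF receptor ligands Areg (amphiregulin), Ereg (epiregulin) and Hbegf (heparin-binding EGF-like growth factor), the interleukin-6 family cytokine Osm (oncostatin M), Tgfb1 and the TGF-beta-induced matrix protein gene Tgfbi, and the growth factors Igf1 and Pdgfb. They are 8 of the 27998 genes in the tables and were chosen by symbol, as secreted factors that may act on bone and periodontal ligament cells. Earlier results of these data were known when they were chosen. The data were 2 libraries of droplet RNA sequencing from alveolar bone of male C57/B6 J mice aged 8 weeks. The control library came from unloaded mice, and the other from mice whose first molar had been pulled by a nickel-titanium spring for 7 days (orthodontic tooth movement, OTM). The methods describe release of the cells with collagenase and sorting on F4/80 and CD11b, and how many mice went into each library is not given in the sources used here. With 1 library per condition and cells that are not replicates, no test between the conditions was possible, and every interval given is a 95% interval that covers counting error only.

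After filtering, 2444 control cells with 10728381 unique molecular identifiers (UMIs, counted transcripts) and 1255 OTM cells with 7787159 UMIs remained. OTM cells were deeper, with a median of 6053 UMIs against 3675.5. The label of macrophages did not hold for all cells. Joint clustering gave 10 clusters, of which 6 were monocyte/macrophage-like (1516 control and 873 OTM cells) and 2 were neutrophil-like (758 and 314 cells). Of the others, 1 was granulocyte progenitor-like (122 and 48 cells) and 1 stayed unnamed (48 and 20 cells). Both neutrophil-like clusters scored highest on the list of mature neutrophil genes. At a finer resolution, a cluster of 155 control and 35 OTM cells led by Ltf, Camp and Ngp scored highest on the immature list. Csf1r, the macrophage colony-stimulating factor receptor gene, stood at 182 and 150 CPM, the UMIs of a gene scaled to 1000000 UMIs of the group, in the monocyte/macrophage-like cells of control and OTM and at 21.4 and 25.2 CPM in the neutrophil-like cells. S100a8, a mature neutrophil marker here, stood at 13432 and 13853 CPM in the former and at 195981 and 161102 CPM in the latter. Its RNA was thus found in both classes, and how much of it in the former came from neutrophils was not tested.

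EGF receptor ligands are made as membrane-bound precursors, are released by proteases such as ADAM17, and act on epithelial, mesenchymal and bone-lining cells. Oncostatin M signals through gp130 to stromal cells and osteoblasts and is a known product of macrophages and neutrophils in bone. TGF-beta 1 is stored in bone matrix in latent form and couples resorption to formation, Tgfbi encodes a matrix protein first known as a TGF-beta target and abundant in periodontal ligament, IGF-1 supports osteoblasts, and PDGF-BB recruits mesenchymal and vascular cells.

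A gene was called higher or lower where the ratio of CPM, OTM over control, was at least 1.5-fold in either direction and at least 50 UMIs were counted over both libraries. Over all cells, 3 members were called higher and 1 lower of the 6 with enough UMIs, against backgrounds of 6.81% and 16.9% of 8599 genes. In the monocyte/macrophage-like cells 6 of the 8 members reached 50 UMIs too. Areg, Ereg and Tgfbi were called higher, which is 3 members in a class in which 5.87% of 8071 genes were called higher, and Hbegf was called lower, where 18.5% of genes were. Osm and Tgfb1 were not called. Since the members were chosen with earlier results known, setting them against these shares is a description only. The median log2 ratio of these 6 members was 0.60 and that of all genes counted was -0.17. Scaling by trimmed mean of M values (TMM) in place of total UMIs would raise each log2 ratio here by 0.18. It took Hbegf out of the calls, with a ratio of 0.713, and left the other 3.

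Areg encodes a ligand that is shed to act on neighbouring cells. Its level in the monocyte/macrophage-like cells was 101.2 CPM in control (759 UMIs, interval 94.1 to 109) and 297 CPM in OTM (1885 UMIs, interval 284 to 311). The ratio was 2.94 (2.70 to 3.20), and 66 of the 8071 genes had a larger one. In the neutrophil-like cells Areg stood at 8.86 CPM in control and 24.2 CPM in OTM, from 19 and 24 UMIs, below the minimum for a call. The monocyte/macrophage-like cells held 95.6% of the Areg UMIs of control and 98.0% of those of OTM, on 69.9% and 81.5% of all UMIs.

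Within finer groups the Areg difference was not even. The share of all genes called higher was 8.64% in the S100a4-led monocyte-like cells, 16.9% in the Saa3-led ones, 12.8% in the MHC class II-high-like, 8.06% in the cycling, 9.37% in the interferon-response and 9.67% in the nonclassical cells, and this is the background for the Areg and Tgfbi calls by group. In the classical monocyte-like cells led by S100a4, a calcium-binding protein gene, the level was 111 CPM in control and 226 CPM in OTM, a ratio of 2.04 (1.73 to 2.40). In the classical monocyte-like cells led by Saa3 and Chil3, an acute-phase and a chitinase-like gene, it was 142 and 451 CPM, a ratio of 3.17 (2.41 to 4.24). Saa3 itself stood at 1191 CPM in the control and 16923 CPM in the OTM cells of this group, so the name describes its OTM cells, and Saa3 in the S100a4-led cells of OTM, at 5910 CPM, was above its control level. The Saa3-led group held 63 control and 312 OTM cells, so 83.2% of it was of the OTM library, and its OTM cells held 58.3% of all OTM Areg UMIs on 31.9% of all UMIs. The MHC class II-high-like cells went from 97.3 CPM in control to 277 CPM in OTM (ratio 2.85, 2.25 to 3.63), and the interferon-response monocyte-like cells from 67.6 to 227 CPM (ratio 3.35, 2.42 to 4.68). The cycling cells had 111 CPM in control and 117 CPM in OTM, and their ratio of 1.05 had an interval of 0.824 to 1.34, below that of each of the other 4 groups that reached 50 UMIs. The cycling cells carried the classical monocyte genes Ly6c2 (3436 and 2857 CPM) and Fn1 (858 CPM in both). Of the lineage lists, that of B cells had the largest fold there, with Ebf1 at 87.3 and 19.7 CPM, from 152 and 18 UMIs. At a finer resolution of clustering, a B cell-like cluster of 13 control cells and 1 OTM cell held 151 and 18 Ebf1 UMIs. The cycling cluster of that resolution had the classical monocyte list as its top lineage list. Without the cycling cells of the main clustering the Areg ratio of the class was 3.34, and the calls were again 3 higher and 1 lower. The nonclassical monocyte-like cells had 44.6 and 61.8 CPM from 24 and 20 UMIs.

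**Figure D1:**
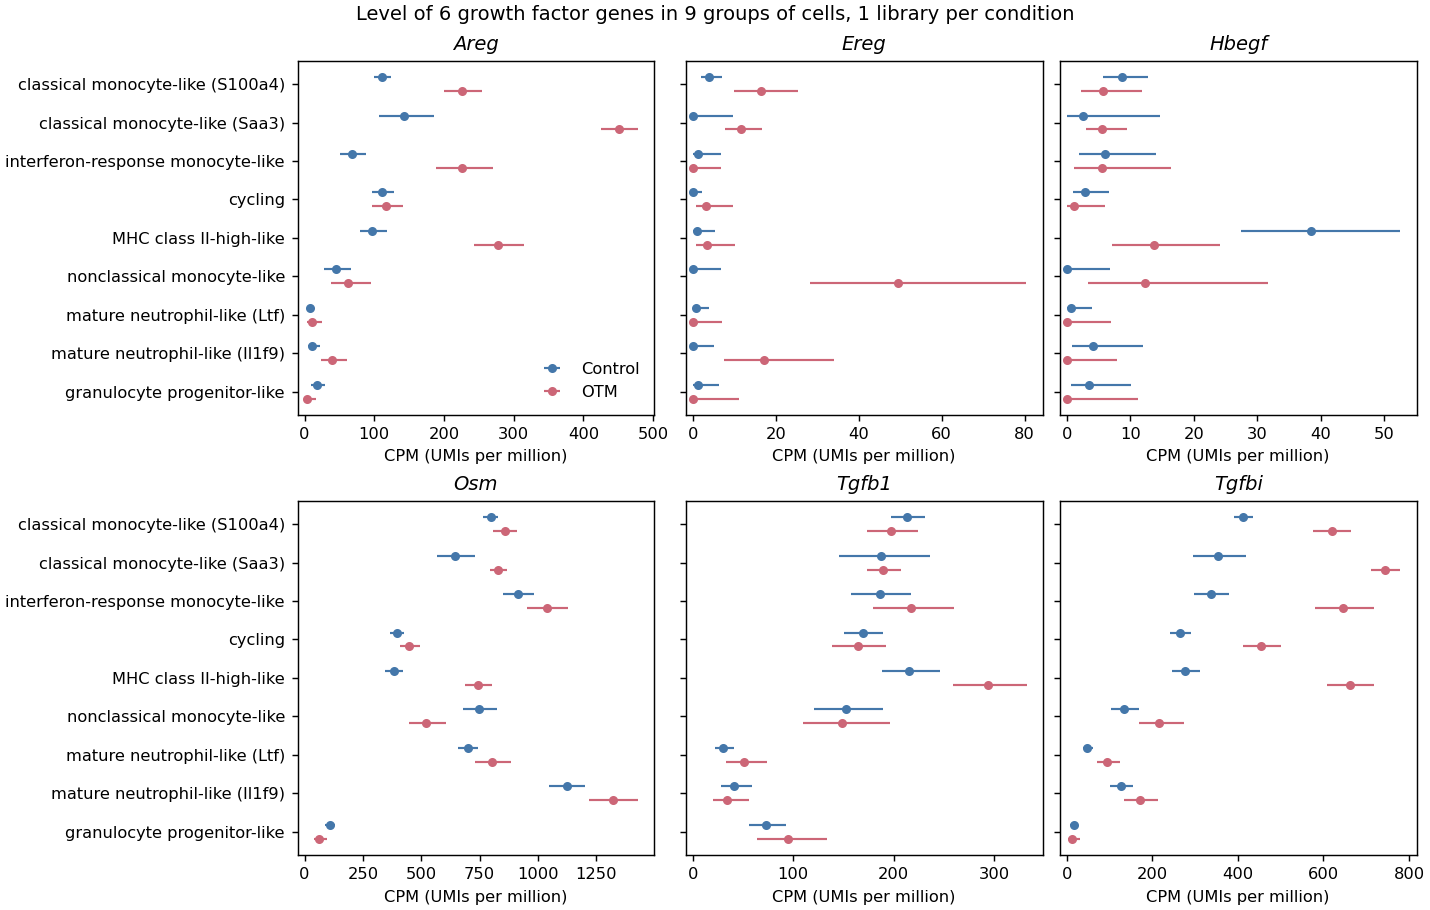
Level of 6 members in 9 groups of cells, as CPM on the horizontal axis (scales differ between panels), with control in blue and OTM in red. Bars are exact Poisson 95% intervals for counting error in 1 library per condition. Areg and Tgfbi were highest in the Saa3-led monocyte-like cells of OTM, at 451 and 744 CPM, and Osm in the Il1f9-led neutrophil-like cells of OTM, at 1321 CPM.

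Without the Saa3-led group, the Areg levels of the monocyte/macrophage-like cells were 99.0 and 198 CPM, a ratio of 2.00 (1.804 to 2.22). When OTM was weighted to the control share of UMIs in each of the 10 clusters, the Areg ratio over all cells went from 3.34 to 2.05, that of Tgfbi from 2.17 to 1.73, and that of Ereg from 6.80 to 6.37. The Areg value depends on the clustering, with 2.63 at a coarser resolution and 3.13 by class when each library was clustered alone. The Saa3-led cells of control carried more neutrophil RNA than those of OTM, with a summed level of 6 immature neutrophil genes of 16470 against 3083 CPM. The part of that RNA in the ratios of this group was not tested.

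Areg transcripts were held by few cells. Of the monocyte/macrophage-like cells 11.1% of control and 21.0% of OTM had an Areg UMI. Of the Areg UMIs, 50 percent lay in 29 of 1516 control cells and in 23 of 873 OTM cells. The cell with most Areg had 27 UMIs in control and 134 in OTM. Across these cells the variance of Areg UMIs over their mean was 9.25 in control and 30.6 in OTM. The counting intervals of Areg take UMIs as independent and do not cover this spread between cells, also where groups are set side by side. The top 5 percent of cells held 81.6% of Areg UMIs in control and 71.4% in OTM, while for Osm, Tgfb1 and Tgfbi they held 18.9% to 22.5%. Cells with 10 or more Areg UMIs numbered 20 in control and 61 in OTM, and held 39.4% and 79.8% of the Areg UMIs of their library. In OTM these were 30 of 312 Saa3-led cells (9.62%), 10 of 129 MHC class II-high-like cells (7.75%) and 4 of 69 interferon-response cells (5.80%). They were also 4 of 84 cycling cells (4.76%) and 10 of 211 S100a4-led cells (4.74%). In control they were 2 of 63 Saa3-led (3.17%), 6 of 206 cycling (2.91%) and 7 of 738 S100a4-led cells (0.949%). There they were also 2 of 214 MHC class II-high-like (0.935%) and 1 of 156 interferon-response cells (0.641%).

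**Figure D2:**
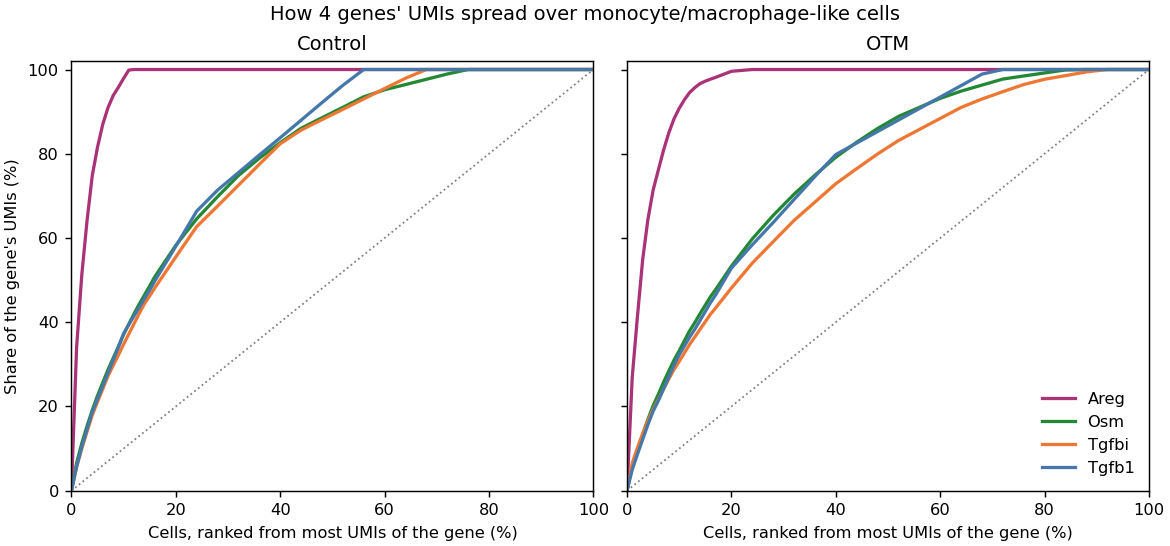
Share of a gene's UMIs (vertical axis, percent) held by monocyte/macrophage-like cells ranked from most to fewest UMIs of that gene (horizontal axis, percent of cells), with control in the left panel and OTM in the right. The dotted diagonal is an equal share in every cell. Areg climbs steeply, with 81.6% and 71.4% of its UMIs in the top 5 percent of cells, and the other 3 genes run close together.

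Since OTM cells were deeper, each cell was thinned to 2000 UMIs, which left out 44 shallower control cells and none of OTM among the monocyte/macrophage-like cells. At this depth Areg was found in 8.22% of control and 14.0% of OTM cells, a difference of 5.75 percentage points (3.05 to 8.58). Cells with 5 or more Areg UMIs at this depth were 18 of 1472 in control and 35 of 873 in OTM. Among neutrophil-like cells the thinned shares were 1.28% and 2.23%, and whether Areg there lay above background RNA was not tested. Their medians were 2520 and 2998 UMIs before thinning, against 4269 and 7222 in the monocyte/macrophage-like cells. Cells with Areg held a mean of 2.52 UMIs in control and 4.03 in OTM after thinning, so both the share of cells and the UMIs per such cell were higher in OTM.

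The upstream sequences of Areg and Tgfbi are shown, the members called higher whose promoters are in the table. They come from RefSeq on GRCm38.p6 and end at the base before the first annotated start. Both genes are on the plus strand. Areg covers chr5:91139599-91148432 and Tgfbi chr13:56609523-56639562 in GENCODE vM21 on GRCm38. In the same annotation Ereg covers chr5:91074622-91093646, Osm chr11:4236420-4241026, Tgfb1 chr7:25687002-25705077 and Igf1 chr10:87858265-87937042, all on the plus strand, and Pdgfb covers chr15:79995874-80014977 on the minus strand. Capitals mark a cAMP response element (CRE, TGACGTCA), a TATA box (TATAAA) and GC boxes (GGGCGG), searched on both strands, and AP-1 sites (TGANTCA) were searched too. The shown stretches are chr5:91139349-91139598 and chr13:56609336-56609522.
Areg: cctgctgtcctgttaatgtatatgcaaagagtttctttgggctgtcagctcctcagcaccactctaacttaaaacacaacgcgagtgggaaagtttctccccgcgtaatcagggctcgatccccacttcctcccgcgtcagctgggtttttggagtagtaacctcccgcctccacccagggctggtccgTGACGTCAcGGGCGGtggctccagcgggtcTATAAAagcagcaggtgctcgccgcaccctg
Tgfbi: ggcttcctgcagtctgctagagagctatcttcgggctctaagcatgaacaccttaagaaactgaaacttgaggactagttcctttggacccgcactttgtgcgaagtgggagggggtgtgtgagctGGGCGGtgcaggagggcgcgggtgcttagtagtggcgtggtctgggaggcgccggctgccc
In Areg the CRE starts 61 bases and the TATA box 31 bases before the start. In the windows of 300 bases around the start, Areg, Igf1, Tgfb1 and Tgfbi had an entry in the table. Areg alone of these held the CRE and the TATA box, Igf1 alone an AP-1 site, and Tgfb1 had 6 GC boxes against 2 in Areg, 2 in Tgfbi and 0 in Igf1. Of 32851 mouse windows of this kind, 1.79% held the CRE, 7.81% an AP-1 site, 13.6% TATAAA and 35.7% a GC box. These matches describe letters only.

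Ereg, which starts 64977 bases from the start of Areg on the same chromosome and strand, was scarce in both libraries. In the monocyte/macrophage-like cells it had 14 UMIs in 6 of 1516 control cells (1.87 CPM, 1.02 to 3.13) and 71 UMIs in 26 of 873 OTM cells (11.2 CPM, 8.74 to 14.1), a ratio of 5.997 (3.35 to 11.5). A single control cell held 7 of the 14 UMIs. In the nonclassical monocyte-like cells control had no Ereg UMI and OTM had 16, at 49.4 CPM, at least 8.87-fold higher against a floor of 3 UMIs in control, while the exact interval of the ratio starts at 6.41. Ereg was thus highest in a group in which Areg was low. Without the 10 cells with most Ereg UMIs in each library, too few UMIs remained for a call.

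Among OTM monocyte/macrophage-like cells thinned to equal depth, Ereg was found in 5 of 122 cells with Areg (4.10%, 1.34 to 9.31) and in 0.932% of cells without Areg (0.376 to 1.91). Only 12 of the 873 cells had Ereg, and the difference between these shares was not tested. Before thinning, the 61 OTM cells with 10 or more Areg UMIs held 23 of the 79 Ereg UMIs of OTM, and 9.84% of them had one, against 2.47% of all OTM cells. Of the 16 Ereg UMIs of control, 1 was in such a cell.

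Hbegf lay in the other direction. The monocyte/macrophage-like cells had 77 Hbegf UMIs in control (10.3 CPM, 8.10 to 12.8) and 41 in OTM (6.46 CPM, 4.64 to 8.77), a ratio of 0.630 (0.420 to 0.931). The MHC class II-high-like cells had 38.5 CPM in control and 13.8 CPM in OTM, from 40 and 12 UMIs, a ratio of 0.358 (0.171 to 0.696) where 11.7% of 3298 genes were called lower, and they held 44.9% of the Hbegf UMIs of control on 9.67% of all its UMIs, and 28.6% of those of OTM on 11.2%. In the S100a4-led cells Hbegf had 26 UMIs in control and 7 in OTM, below the minimum for a call (ratio 0.658, 0.241 to 1.56). At equal depth the share of monocyte/macrophage-like cells with an Hbegf UMI, OTM minus control, differed by -0.96 percentage points. The interval of -2.01 to 0.203 held 0. Of the MHC class II-high-like cells 9.13% in control and 1.55% in OTM had an Hbegf UMI at equal depth. The nonclassical monocyte-like cells ran against this with 0 UMIs in control and 4 in OTM. At equal depth 1 of 121 control cells with Areg had Hbegf (0.826%), against 2.22% of cells without Areg (1.503 to 3.15), which lies within the counting interval of the former, 0.0209 to 4.52. The Hbegf call was lost with the filter of at least 200 genes per cell (ratio 0.673), and without the 10 cells with most Hbegf in each library the ratio was 0.412.

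Before thinning, Osm was found in 53.7% to 89.7% of the cells of each mature group. The monocyte/macrophage-like cells had 648 CPM in control (630 to 667) and 771 CPM in OTM (750 to 793), a ratio of 1.19 (1.14 to 1.24), below the fold for a call. The neutrophil-like cells had 844 and 1045 CPM, a ratio of 1.24 (1.15 to 1.34), which turned to 0.890 with the filter of at least 200 genes per cell. Osm was highest in the neutrophil-like cells led by Il1f9, at 1123 CPM in control and 1321 CPM in OTM, and lowest in the granulocyte progenitor-like cells, at 108 and 64.0 CPM. Of the neutrophil-like cells 1 member was called higher, Tgfbi, where 13.2% of 2988 genes were, and no member was called lower, where 24.7% were.

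The small ratio of Osm over the whole class hid differences between groups. In the MHC class II-high-like cells Osm was 382 CPM in control and 744 CPM in OTM, a ratio of 1.95 (1.72 to 2.22), and 38.0% and 63.6% of the cells had an Osm UMI at equal depth. There 12.8% of 3298 genes were called higher. In the nonclassical monocyte-like cells the order was the other way, with 749 CPM in control and 522 CPM in OTM and a ratio of 0.697 (0.579 to 0.837). In the granulocyte progenitor-like cells the ratio was 0.595 (0.352 to 0.963), from 93 and 21 UMIs, a call in a group in which 7.85% of 2115 genes were called lower. In the S100a4-led monocyte-like cells it was 1.08 (0.999 to 1.16). These intervals do not cover the spread of Osm UMIs between cells, and the difference between the groups was not tested.

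**Figure D3:**
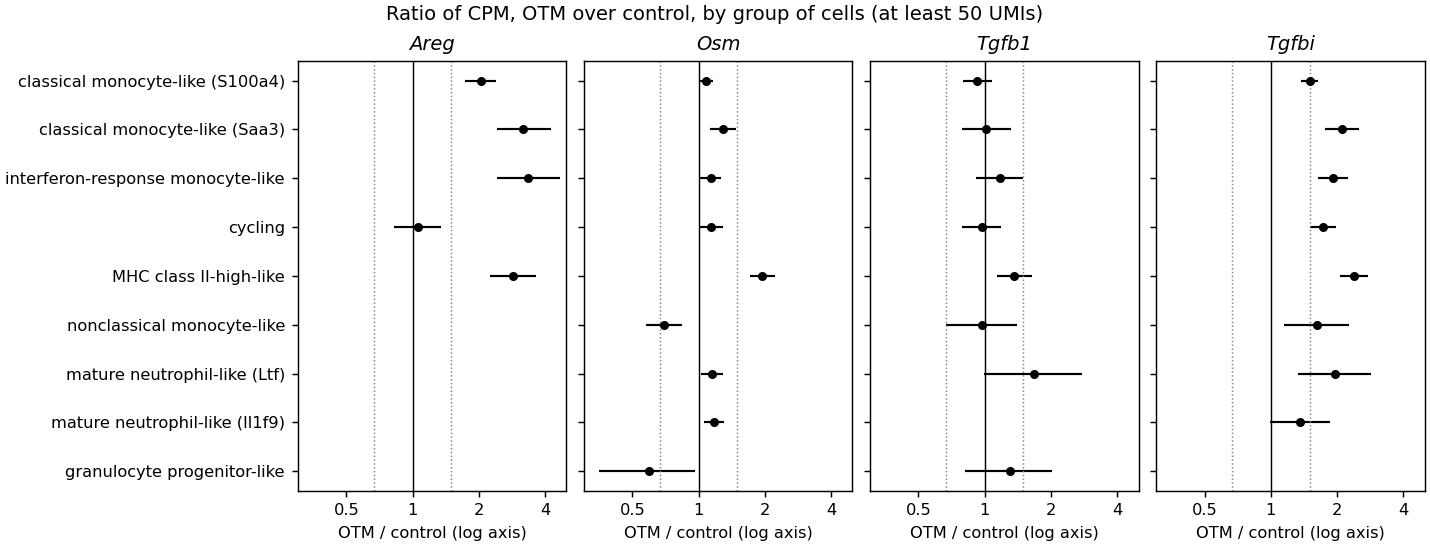
Ratio of CPM, OTM over control, on a log axis, for 4 members in each group of cells with at least 50 UMIs of the gene. Bars are exact conditional binomial 95% intervals, the solid line marks 1 and the dotted lines mark 1.5-fold in each direction. Tgfbi lies above 1 in all 8 groups shown for it, and Osm lies on both sides. The Tgfb1 interval holds 1 in the monocyte-like groups other than the MHC class II-high-like cells.

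Tgfb1 differed little. The monocyte/macrophage-like cells had 195 CPM in control (185 to 205) and 202 CPM in OTM (191 to 214), a ratio of 1.04 (0.961 to 1.12). The neutrophil-like cells were far lower in both libraries, at 34.0 and 43.3 CPM. Among the monocyte-like groups only the MHC class II-high-like cells had an interval above 1, with 216 CPM in control, 294 CPM in OTM and a ratio of 1.36 (1.14 to 1.64), short of a call. Before thinning, 55.6% of control and 69.6% of OTM monocyte/macrophage-like cells had a Tgfb1 UMI, and at equal depth 31.7% and 32.2%, a difference of 0.46 percentage points (-3.48 to 4.46). In the Ltf-led neutrophil-like cells Tgfb1 was called higher from 43 and 27 UMIs, with a ratio of 1.67 whose interval of 0.995 to 2.77 held 1, in a group in which 14.8% of 2103 genes were called higher.

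Tgfbi was higher in OTM in nearly every group. The monocyte/macrophage-like cells had 328 CPM in control (315 to 341) and 632 CPM in OTM (613 to 652), a ratio of 1.93 (1.83 to 2.03), and 186 of the 8071 genes had a larger one. The neutrophil-like cells had 74.6 and 130 CPM, a ratio of 1.74 (1.37 to 2.21). The granulocyte progenitor-like cells had the lowest level of the 9 groups, at 16.2 and 12.2 CPM, from 14 and 4 UMIs. Whether the level in the neutrophil-like cells lay above background RNA was not tested. Of the 9 groups compared, 8 had at least 50 UMIs, 7 were called higher, and the ratios ran from 1.36 in the Il1f9-led neutrophil-like cells to 2.39 (2.07 to 2.76) in the MHC class II-high-like cells. In contrast to Areg, the cycling cells took part, with 264 CPM in control and 455 CPM in OTM and a ratio of 1.72 (1.504 to 1.97).

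The Tgfbi difference was also one of the share of cells. At equal depth 43.7% of control and 65.1% of OTM monocyte/macrophage-like cells had a Tgfbi UMI, a difference of 21.4 percentage points (17.2 to 25.4), against 0.820% and 0 of 48 in the granulocyte progenitor-like cells, where the upper exact limit is 7.40%. Cells with 5 to 9 UMIs before thinning were 6.93% of control and 30.6% of OTM, and cells with none were 32.7% and 9.39%. Where Areg was held by a minority, Tgfbi was spread widely, with 258 control and 186 OTM cells holding 50 percent of its UMIs.

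Igf1 had 33 UMIs in 18 control cells and none in the 1255 OTM cells. The level was at least 7.98-fold lower in OTM against a floor of 3 UMIs, while the exact interval of the fold starts at 6.14. This rests on the cell filter. The barcodes it left out held 2 Igf1 UMIs in control and 12 in OTM (ratio 2.68, 0.597 to 24.7), and over all deposited barcodes Igf1 stood at 2.39 and 0.727 CPM (ratio 0.304, 0.144 to 0.599). Of the 33, 27 were in the MHC class II-high-like cells. At a finer resolution of clustering, a resident macrophage-like cluster led by C1qa, C1qb and C1qc parted from these cells, and it held 26 of the Igf1 UMIs in 11 of 55 control cells, at 92.5 CPM (60.4 to 135). The same cluster had only 19 cells in OTM, none with an Igf1 UMI. A floor of 3 cells is 15.8% of them, a limit on cells with a UMI and not on cells that express the gene. These control cells also held 95 UMIs of 6 fibroblast and osteoblast genes and 246 UMIs of 6 osteoclast genes, against 0 and 23 in OTM. Of the 18 control cells with Igf1, 2 had a UMI of a fibroblast gene and 1 had 3 or more UMIs of osteoclast genes.

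This resident macrophage-like cluster differed from the monocyte-like groups in other members. Hbegf stood at 49.8 CPM in control and 55.5 CPM in OTM, from 14 and 7 UMIs (ratio 1.11, 0.380 to 2.95). In the other MHC class II-high-like cells it stood at 35.3 and 7.04 CPM, from 26 and 5 UMIs (ratio 0.199, 0.0598 to 0.528). Both counts are below the minimum for a call. Areg stood at 21.3 and 23.8 CPM, from 6 and 3 UMIs, well below the monocyte-like levels in OTM. Tgfbi was 238 CPM in control and 745 CPM in OTM, a ratio of 3.13 (2.26 to 4.34), and Osm 299 and 666 CPM, a ratio of 2.23 (1.63 to 3.05), in a cluster in which 16.7% of 1046 genes were called higher. These values rest on 55 and 19 cells. The 7 genes of the mature neutrophil list summed to 26950 CPM in control and 55262 CPM in OTM in this cluster, and their part in the Osm ratio was not tested.

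Pdgfb had 15 UMIs in 13 control cells and 1 UMI in OTM, a ratio of 0.0918 (0.00218 to 0.597). Of the 15, 8 were in the MHC class II-high-like cells and 3 in the nonclassical monocyte-like cells. As with Igf1, the gene was too scarce for a call.

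The other genes of these pathways were read in the monocyte/macrophage-like cells from 8 lists. Of the 4 further EGF receptor ligands on the list none reached 50 UMIs: Tgfa and Btc had no UMI, Egf had 4 in control and 1 in OTM, and Epgn had 2 and 12. The receptors Egfr, Erbb2 and Erbb4 had 1 UMI together, in OTM. Of the shedding genes, Adam17, the main sheddase of these ligands, was 45.6 and 37.4 CPM (ratio 0.820, 0.691 to 0.970), and Rhbdf2, its partner in transport, 25.5 and 25.2 CPM. Cd9, a tetraspanin that associates with the Hbegf precursor, was the 1 gene of 4 called, lower at 128 and 76.0 CPM (ratio 0.591, 0.529 to 0.660).

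Of the oncostatin M family, 5 of 7 genes with enough UMIs were called higher and 1 lower, and the median log2 ratio was 0.81, where 5.87% of all genes were called higher and 18.5% lower and their median was -0.17. Lif went from 18.1 to 60.7 CPM (ratio 3.35, 2.75 to 4.10), Il6 from 168 to 525 CPM (3.14, 2.94 to 3.35), and Clcf1 from 5.06 to 12.1 CPM (2.40, 1.60 to 3.63). Osm, their relative, had a ratio of 1.19. Socs3, a feedback inhibitor of this family's signalling, went from 226 to 398 CPM, while Il6st, which encodes gp130, was lower (24.0 and 15.6 CPM), a call lost with TMM scaling. The receptor gene Lifr was the remaining gene called higher, and Osmr had 1 UMI.

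Of 16 genes of TGF-beta supply and signalling, 2 were called higher and 5 lower, with a median log2 ratio of -0.40. Thbs1, whose product can activate latent TGF-beta, went from 335 to 752 CPM (ratio 2.25, 2.14 to 2.36), and Tgif1, a repressor of the pathway, from 196 to 341 CPM. The receptor genes Tgfbr1 (22.9 and 13.1 CPM) and Tgfbr2 (17.99 and 9.61 CPM) were lower, as were Eng, Ski and Smad2, and with TMM scaling 2 of these 5 lower calls were left. Smad7, an inhibitor that the pathway induces, was 35.3 and 37.7 CPM. Tgfbi is not on this list.

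Of 5 genes of the IGF list, Igfbp6 was called higher (8.40 to 38.1 CPM, ratio 4.54, 3.43 to 6.09) and Igfbp4, Insr and Irs2 lower. Pdgfa, the 1 gene of the PDGF list with enough UMIs, was lower at 5.33 and 1.58 CPM (ratio 0.296, 0.132 to 0.602). Of 7 other growth factor genes of macrophages, Tnf (50.2 to 134 CPM) and Inhba (3.07 to 4.89 CPM) were called higher and Vegfa (69.4 to 16.4 CPM), Hgf (6.80 to 2.52 CPM) and Gdf15 (31.7 to 2.21 CPM) lower. Of 21 immediate early and dissociation stress genes, 1 was called higher (Ier3, 887 to 1711 CPM) and 7 lower, among them Atf3, Fosb, Egr1 and Hspa1a. Among all 8071 genes counted in these cells 24.3% were called, 5.87% higher and 18.5% lower. The chosen lists were not independent of earlier results.

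**Figure D4:**
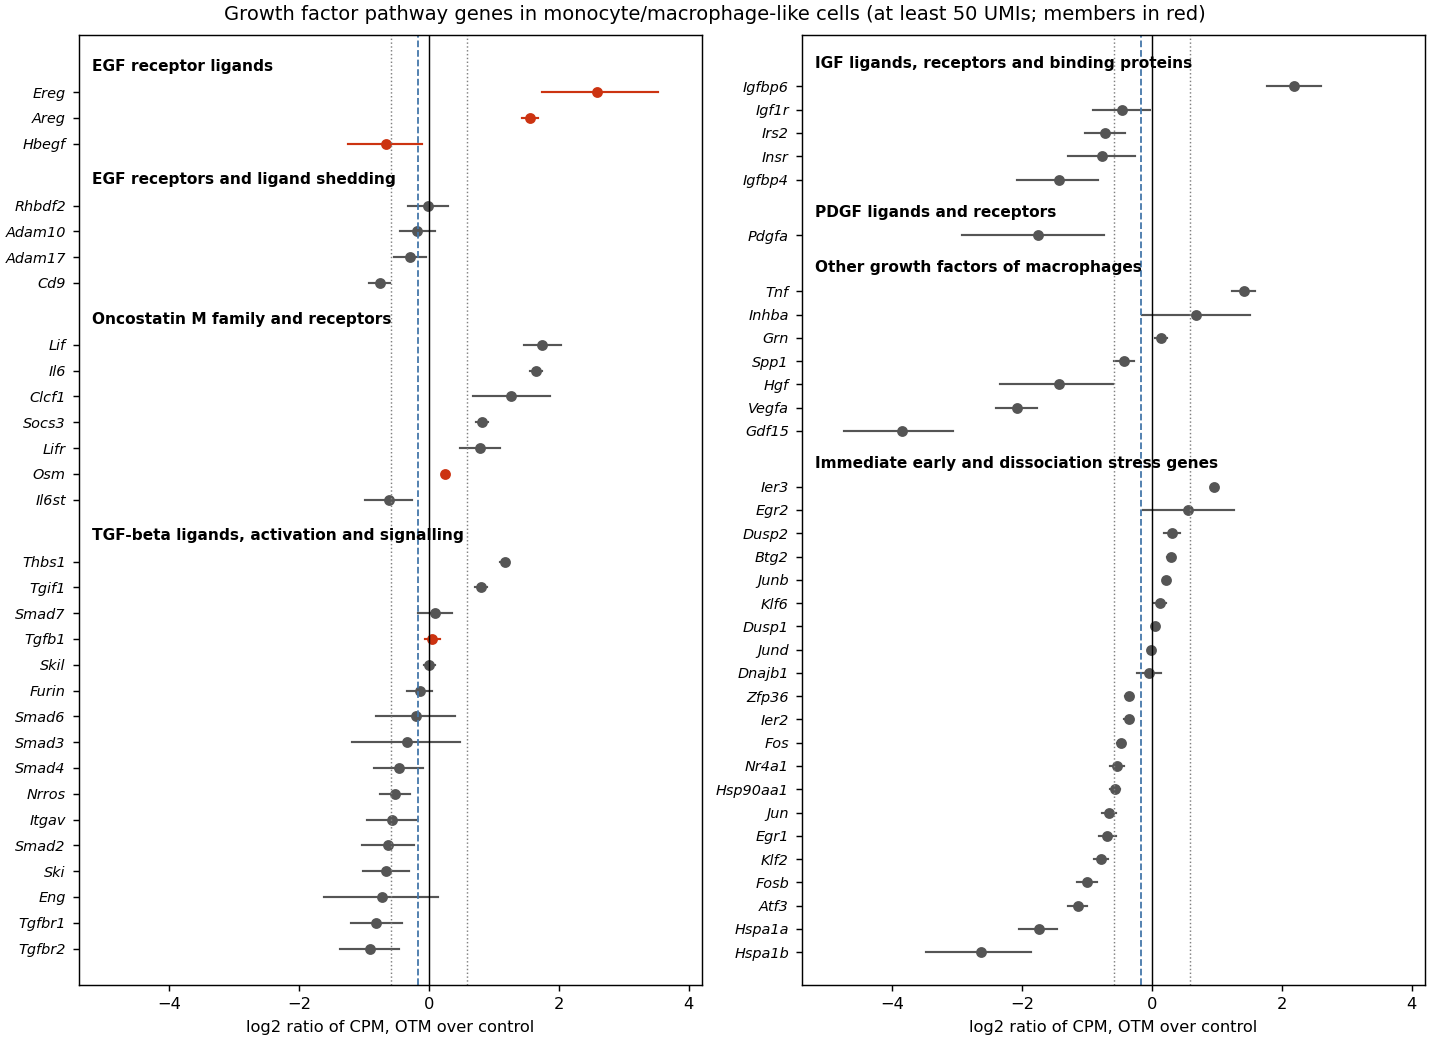
Log2 ratio of CPM, OTM over control, in monocyte/macrophage-like cells for each listed gene with at least 50 UMIs, with members in red. Bars are exact conditional binomial 95% intervals, dotted lines mark 1.5-fold and the dashed line is the median of all genes, -0.17. Ereg and Areg lie at the top of the first list with Lif and Il6 at the top of the third, and Gdf15, Hspa1b and Vegfa lie farthest to the left.

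To find genes whose pattern was most like that of a member, levels (log2 of CPM with 10 added) were correlated over 19 profiles, each a cluster of 1 library with at least 30 cells, among 5338 other genes. These profiles share libraries and depth, so the values are descriptions. For Areg the nearest were Asah1 (r = 0.943), a lysosomal ceramidase gene, Ccdc71l (0.940) and the scavenger receptor gene Msr1 (0.938). For Tgfbi they were Ier3 (0.966), the cathepsin gene Ctsl (0.960) and Errfi1 (0.955), which encodes a feedback inhibitor of the EGF receptor. For Osm they were Por (0.943), Snx20 (0.936) and Snx18 (0.927), and for Tgfb1 Snx5 (0.972), Eif3f (0.969) and Mrpl52 (0.968). The highest values were lower for Ereg (Atp6v1e1, 0.741) and Hbegf (Gabarapl1, 0.873). These 2 members had 95 and 131 UMIs over all kept cells, below the minimum of 200 UMIs set for the genes compared. The part of this scarcity in the lower values was not tested.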

How the data were processed

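Per the labels and the study's methods, the authors aligned reads of 10x 3′ libraries to mm10 with Cell Ranger 3.0.0 (with Seurat 3.0.0 downstream) and deposited raw counts of UMIs per gene and barcode, 2863 control and 2058 OTM barcodes, with no normalization. The stated filter was read literally: 200 genes or more for every 1000 UMIs, and no more than 5% of UMIs mitochondrial. It removed 14.6% of control and 39.0% of OTM barcodes. The removed barcodes were the deeper ones, with medians of 8395 UMIs in control and 9717 in OTM, against 3675.5 and 6053 in the kept cells. The study reported more cells after its own quality control than the barcodes deposited for either library, so the cells kept here are not the study's set. The 2 libraries shared 6 barcodes. Cells were clustered jointly with Seurat 5.3.0 in R 4.3.3 (integration on 2000 features, 20 dimensions, resolution 0.6, seed 42) with members and pathway genes left out of the features. Clusters were named from marker lists of which at least 3 genes were found in 5% of cells. Leading genes were the 10 with the largest fold among genes found in 50% of the cells, a minimum chosen after seeing the data. The cycling cluster, whose top lineage list was that of B cells, was placed among the monocyte, neutrophil and progenitor lists only, where monocyte lists scored highest.

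UMIs were summed per group in Python 3.11.15 (scipy 1.17.1, pandas 2.3.3, numpy 2.4.6). CPM has exact Poisson intervals, ratios exact conditional binomial intervals, and shares Clopper-Pearson intervals. A log2 ratio has 0.5 UMIs added. Floors are 3 counts. Levels were not compared between genes. Scrublet (scanpy 1.11.5) called 99 control and 11 OTM cells doublets, kept except in an alternative. TMM factors came from edgeR 4.0.16, without its tests. The methods were tested on simulated data. Members and lists were chosen with earlier results of these data known. Named genes are the members, listed pathway genes, markers and the 3 most like genes. Control and OTM are the labels' groups. Alternatives covered the cell filter, scaling, weights, doublets, fold and UMI minimums, and clustering. The row for Ltbp4 was not analysed here.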

Additional observations from a re-analysis of the deposited data

Results flagged for a closer look

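Osm differed in direction between groups of cells. Its ratio, OTM over control, was 1.95 in the MHC class II-high-like cells, 0.697 in the nonclassical monocyte-like cells and 0.595 in the granulocyte progenitor-like cells, with counting intervals on either side of 1. These intervals take UMIs as independent and do not cover the spread of Osm UMIs between cells. With 1 library per condition the difference between the groups was not tested.

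The barcodes left out by the filter, 419 of control and 803 of OTM, carried 5 members whose level was higher in OTM than in control with an interval above 1. Areg stood at 73.6 CPM in OTM and 13.6 CPM in control (ratio 5.40, 4.08 to 7.29), Tgfbi at 180 and 38.0 CPM (4.74, interval up to 5.64), and Ereg at 2.30 and 0.257 CPM, from 20 UMIs and 1 UMI (8.93, 1.43 to 370). Osm stood at 360 and 278 CPM (1.30, 1.21 to 1.39) and Tgfb1 at 82.5 and 61.7 CPM (1.34, 1.15 to 1.56). Pdgfb was lower in OTM (ratio 0.0745, 0.00162 to 0.614), and Hbegf (1.21, 0.566 to 2.79) and Igf1 (2.68, 0.597 to 24.7) lay above 1, unlike in the kept cells, with intervals that hold 1. Each of the levels given in CPM was below that of the kept cells of the same library.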

How the results depend on the processing

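No paired analysis was possible because each condition had 1 library, and no library could be left out. Over all cells, 4 members were called, 3 higher and 1 lower, against 6.81% and 16.9% of 8599 genes. Over the 8 settings run there, the ratio of Areg ran from 2.66 to 3.66 and that of Tgfbi from 1.81 to 2.37. No ratio of the 4 members changed direction, but Ereg had a ratio in only 7 of the settings. Hbegf was called lower in 7 of the 8. In the monocyte/macrophage-like cells the 14 settings gave Areg 2.00 to 3.34, Tgfbi 1.71 to 2.18, Hbegf 0.412 to 0.713 (called lower in 12) and Tgfb1 0.955 to 1.17, on both sides of 1. The lowest Areg and Tgfbi ratios came without the Saa3-led cluster, a setting chosen after seeing the data, as were those without the 10 top cells of a member, without the cycling cluster and with all deposited barcodes. With at least 200 genes per cell the ratio of Osm was 1.02 over all cells and 0.890 in neutrophil-like cells.

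With 200 UMIs as the minimum, 2 members were called over all cells and 2 in the monocyte/macrophage-like cells, and with a fold of 2 the latter had 2, which follows from fewer genes passing. In the neutrophil-like cells the count of 1 became 2 with at least 200 genes per cell, 0 with a fold of 2, 2 with at least 20 UMIs and 3 with each library clustered alone. At control composition, resolution 0.3 gave ratios of 2.63 for Areg and 1.82 for Tgfbi, clustering without integration 1.06 for Osm and 1.63 for Tgfbi, and each library clustered alone, where only the classes are shared, 3.13 for Areg and 2.04 for Tgfbi. Without thinning, the difference in the share of cells became 9.88 points for Areg, 2.58 for Ereg and 14.0 for Tgfb1, and with 1000 UMIs 17.0 for Tgfbi. With TMM the EGF receptor and shedding list had 0 calls and the TGF-beta list 4, 2 higher and 2 lower. TMM moved the share of higher calls among all calls from 28.8% to 47.3% over all cells, from 24.1% to 46.9% in monocyte/macrophage-like and from 34.9% to 52.4% in neutrophil-like cells. Spearman's correlation kept 2 of the 18 most like genes and a pseudocount of 1 CPM 13. Where not stated, the cause was not tested.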
